A study of Mus musculus with 18 samples.

Results

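Phase II conjugation enzyme genes encode the glutathione S-transferases (GSTs), the membrane-bound GSTs (MGSTs), the UDP-glucuronosyltransferases (UGTs) and the sulfotransferases (SULTs). The 41 genes described here were chosen by gene symbol (Gsta, Gstk, Gstm, Gsto, Gstp, Gstt, Gstz, Mgst, Ugt1, Ugt2, Ugt3 or Sult), and by their measured level, with the condition of at least 1 FPKM (fragments per kilobase of transcript, scaled to the mapped fragments of the library) in at least 3 of the 18 libraries. Of 21928 symbols in the data, 67 had such a name, 41 of them passed, and all 41 were among the 11767 genes tested, since the tests used the same condition. The 41 members comprised 4 of 4 Gsta, 1 of 1 Gstk, 7 of 7 Gstm, 1 of 2 Gsto, 3 of 3 Gstp, 3 of 4 Gstt, 1 of 1 Gstz, 3 of 3 Mgst, 7 of 9 Ugt1, 6 of 10 Ugt2, 0 of 2 Ugt3 and 5 of 21 Sult symbols.

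RNA was sequenced from the small intestine of wild-type C57BL/6 mice at day 21, with 3 libraries in each of 6 groups. Total abdominal irradiation (TAI) was an exposure of the abdomen to 12 Gy. Among females, Ffat mice received TAI and a high-fat diet (HFD), FTAI mice received TAI alone and Fcon mice received neither. Among males, MT mice received TAI and simvastatin, an inhibitor of the cholesterol-synthesis enzyme HMG-CoA reductase given by gavage, MTAI mice received TAI alone and Mcon mice received neither. All 6 groups were of the same strain and carried no engineered allele. The ages of the animals and the segment of the small intestine are not given in the sources used here, and no group in these data received HFD or simvastatin without TAI. The study asked how sex changes what these treatments do after irradiation. The p-values below measure the spread between these libraries.

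Conjugation makes small molecules more water-soluble so that they can leave the cell. GSTs join glutathione to electrophiles, including products of lipid peroxidation, UGTs join glucuronic acid from UDP-glucuronic acid to bilirubin, steroids, bile acids and drugs, and SULTs transfer sulfate from the donor PAPS to hormones, sterols and phenols. Enterocytes of the small intestine are a main site of this chemistry outside the liver, and many of the genes are known targets of the oxidant-responsive factor NRF2, of the aryl hydrocarbon receptor and of nuclear receptors.

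The promoters of the 5 members on which the comparisons mainly turn are shown to let their sequences be set beside their shared direction. Each is 300 bases long, from 250 bases before to 50 after the RefSeq start site (build GRCm38.p6), written 5′ to 3′ on the strand of the gene. Capitals mark the antioxidant response element (ARE) core TGACNNNGC or the xenobiotic response element (XRE) core GCGTG, searched on both strands, which do not overlap in these 5 windows. The windows are chr9:78230419-78230718 (plus strand) for Gsta1, chr9:78347096-78347395 (minus) for Gsta2, chr1:21240335-21240634 (plus) for Gsta3, chr5:87140291-87140590 (minus) for Ugt2b5 and chr6:142804417-142804716 (minus) for Sult6b2.
Gsta1: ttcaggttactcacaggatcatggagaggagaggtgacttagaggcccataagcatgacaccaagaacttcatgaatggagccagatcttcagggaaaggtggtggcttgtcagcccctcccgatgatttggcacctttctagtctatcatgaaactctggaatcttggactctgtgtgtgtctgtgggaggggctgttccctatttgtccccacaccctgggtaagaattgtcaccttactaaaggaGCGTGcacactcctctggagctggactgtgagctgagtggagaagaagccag
Gsta2: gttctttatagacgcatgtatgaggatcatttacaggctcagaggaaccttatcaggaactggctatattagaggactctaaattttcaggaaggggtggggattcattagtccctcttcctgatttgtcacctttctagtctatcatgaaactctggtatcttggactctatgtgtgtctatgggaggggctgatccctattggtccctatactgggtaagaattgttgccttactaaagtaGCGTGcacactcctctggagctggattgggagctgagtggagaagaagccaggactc
Gsta3: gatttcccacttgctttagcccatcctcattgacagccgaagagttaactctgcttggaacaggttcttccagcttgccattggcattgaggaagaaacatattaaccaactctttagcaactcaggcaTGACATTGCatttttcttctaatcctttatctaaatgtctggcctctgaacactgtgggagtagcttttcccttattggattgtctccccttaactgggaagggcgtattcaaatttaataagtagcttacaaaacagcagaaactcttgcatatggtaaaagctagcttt
Ugt2b5: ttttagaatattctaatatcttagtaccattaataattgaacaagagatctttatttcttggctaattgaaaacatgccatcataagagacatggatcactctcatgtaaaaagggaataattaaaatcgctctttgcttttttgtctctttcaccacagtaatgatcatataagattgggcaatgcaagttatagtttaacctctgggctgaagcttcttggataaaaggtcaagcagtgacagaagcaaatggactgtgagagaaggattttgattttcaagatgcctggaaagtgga
Sult6b2: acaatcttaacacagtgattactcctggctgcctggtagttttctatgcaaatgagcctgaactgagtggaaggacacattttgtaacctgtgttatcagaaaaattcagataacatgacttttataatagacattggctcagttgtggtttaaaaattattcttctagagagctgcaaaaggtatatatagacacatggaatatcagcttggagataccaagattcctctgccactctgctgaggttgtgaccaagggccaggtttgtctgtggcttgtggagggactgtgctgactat

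An ARE core stood at -121 from the start site of Gsta3, and an XRE core at -2 in Gsta1 and at -7 in Gsta2. No letters of either core were in the windows of Ugt2b5 and Sult6b2. The windows of Gsta1 and Gsta2 shared an identical run of 29 bases. RefSeq promoters were matched for 38 of the 41 members (the others were Gsta4, Gstt2 and Ugt1a6b). The ARE core was in 4 of these 38 (10.53%: Gsta3, Gstm5, Gstm7 and Mgst1), against 13.99% of 27025 genes with a promoter, and the XRE core was in 11 (28.95%), against 35.15% of genes. Of 2 further motifs searched on both strands, a shortened HNF1 motif was in 3 (7.895%: Sult1d1, Ugt1a1 and Ugt1a9), against 0.4699% of genes, and a DR1 motif, a direct repeat bound by nuclear receptors, in 0, against 0.0481% of genes. These matches are descriptions of the letters in the windows only.

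Most members lay in clusters of related genes (GRCm38). The 7 Ugt1 members spanned 149203 bp of chromosome 1 from 88070800 to 88220002, the 7 Gstm members 149074 bp of chromosome 3, and the 6 Ugt2 members 534437 bp of chromosome 5. Gsta1, Gsta2 and Gsta4 lay within 173015 bp of chromosome 9, whereas Gsta3 lay on chromosome 1 (21240589 to 21265661). Ugt2b5 (ENSMUSG00000054630) is at 87124960 to 87140318 of chromosome 5 and Sult6b2 (ENSMUSG00000048473) at 142785204 to 142804502 of chromosome 6.

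FPKM is scaled to transcript length, so the levels of genes can be set beside each other. Sult1b1, which sulfates thyroid hormones and small phenols, had the highest mean over the 18 libraries (324 FPKM). It was followed by Ugt2b34 with 290 FPKM and by Gsto1, a GST that also reduces dehydroascorbate, with 250 FPKM. Ugt1a1, the enzyme that conjugates bilirubin, averaged 166 FPKM. Sult1d1, which sulfates catecholamines in mice, averaged 145 FPKM and Mgst3 142 FPKM. These 6 genes together held 56.2% of the summed mean FPKM of the 41 members. The next 9 were Gstm3 (120 FPKM), Gsta1 (111 FPKM), Mgst2 (107 FPKM, which can make leukotriene C4), Mgst1 (97.4 FPKM), Sult2b1 (82.8 FPKM, which sulfates cholesterol), Ugt1a7c (70.8 FPKM), Ugt2a3 (67.9 FPKM), Gstp1 (54.7 FPKM) and Gstm1 (40.7 FPKM).

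**Figure D1:**
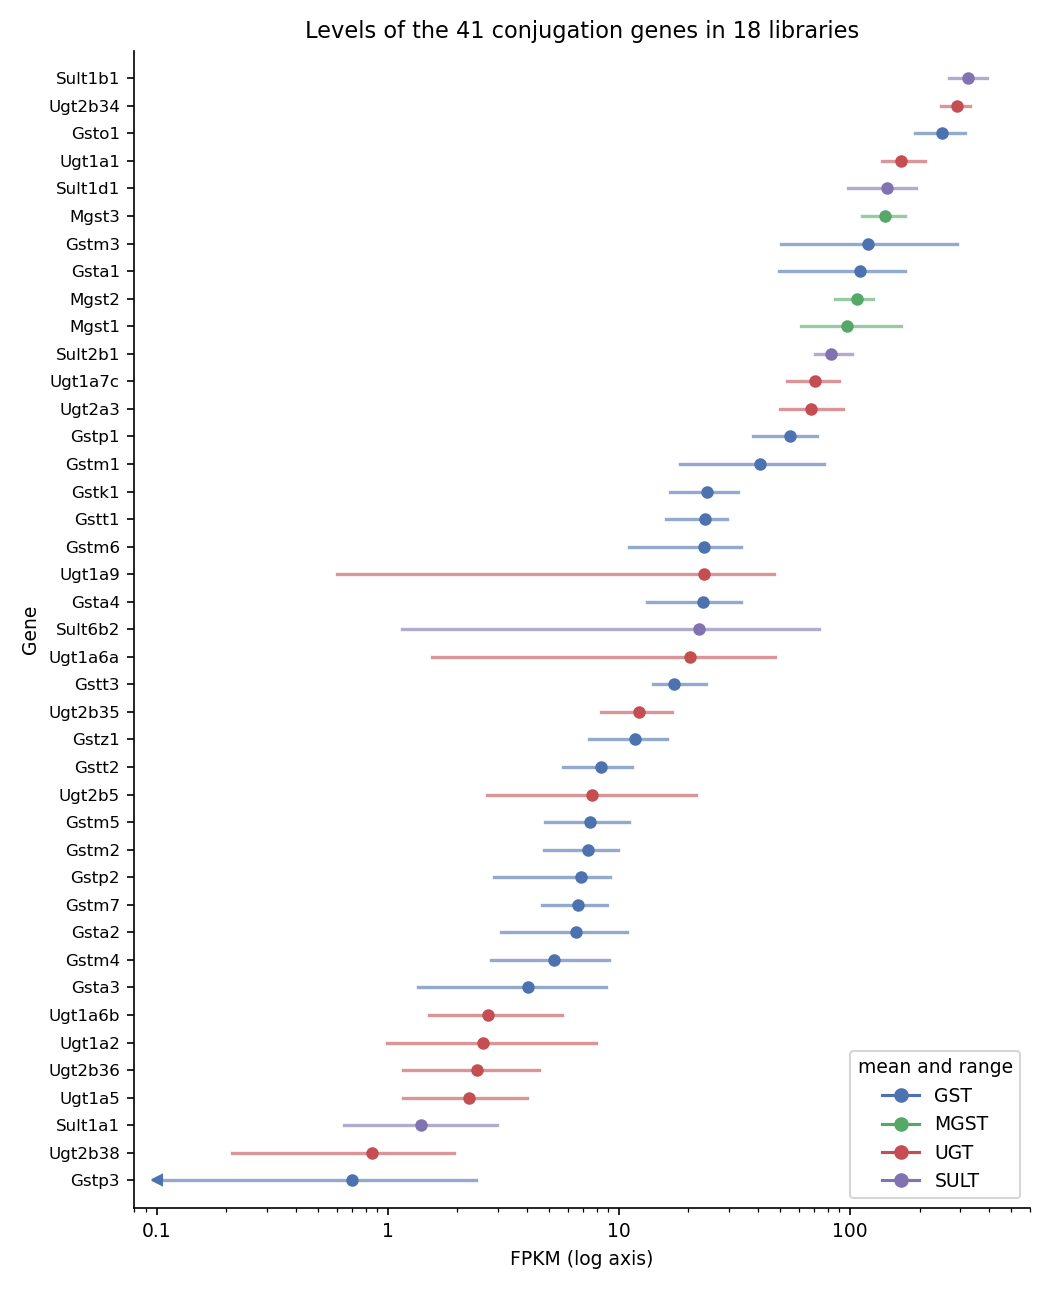
Mean level of each of the 41 genes over the 18 libraries (point, FPKM on a log axis) with the range from the lowest to the highest library (line), coloured by enzyme family. Sult1b1 is at the top with 324 FPKM, Gstp3 and Ugt2b38 are at the bottom under 1 FPKM, and the widest ranges are those of Ugt1a9, Ugt1a6a, Sult6b2 and Gstp3, where the arrow marks a range that reaches 0.

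In all, 9 members averaged at least 100 FPKM, 16 averaged 10 to 100 FPKM, 14 averaged 1 to 10 FPKM and 2 averaged under 1 FPKM. There were 36 members at 1 FPKM or more in all 18 libraries, and 0 passed the level condition through 1 group alone. The 2 members just inside the condition were Gstp3 and Ugt2b38, each at 1 FPKM or more in 7 libraries. The 2 symbols just outside were Ugt1a8, with a highest value of 0.993 FPKM, and Sult4a1, with 0.646 FPKM. Among the 26 symbols that were not members, 13 were listed at 0 in every library. These levels chose the members and are a description.

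The libraries had summed values of 390703 to 417937 FPKM and 10540 to 11752 genes at 1 FPKM or more. Their read numbers are not given in the sources used here, and the smallest steps between low values put their relative depths between 0.785 and 1.18 of Fcon replicate 1. The 4 Y-linked genes checked were at 5.47 FPKM or more in the 9 male libraries and at 0.0205 FPKM or less in the 9 female libraries. All 12 enterocyte markers were present in every group, and the summed level of the 6 pancreatic acinar markers was at most 0.478 FPKM in any library. FTAI replicate 3 stood apart, with 7 Paneth cell markers summing to 4179 FPKM, against 186 FPKM in the lowest FTAI library. The square root of the mean variance of log2(FPKM + 1) over genes within a group was 0.36 in FTAI, against 0.17 to 0.24 in the other 5 groups. This measure gives most weight to the most variable genes. By another measure, the median over genes of the SD pooled over groups, the members varied more (0.24, against 0.17 over all genes tested). These are bulk samples, in which fewer cells of a type and less RNA per cell cannot be told apart.

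HFD after TAI went with higher levels of a subset of the genes in females. Of the 41 members, 6 were higher and 0 lower in Ffat than in FTAI mice (14.6% higher, against 3.16% of all genes tested called in either direction and 1.74% called higher). Against Fcon, 8 were higher and 0 lower (19.5% higher, where 4.59% of all genes were called and 2.91% called higher). A gene was called where limma's adjusted p (Benjamini-Hochberg over the 11767 genes) was under 0.05. Both comparisons share the Ffat libraries. The called genes were Ugt2b5, Ugt2b35, Gsta1, Gsta2 and Sult6b2 in both, Gstk1 against FTAI only, and Ugt2b36, Gsta3 and Gsta4 against Fcon only, a difference between the comparisons that was not itself tested. The median log2 difference over the 41 members was 0.17 for Ffat against FTAI, beside -0.01 over all genes, and 30 of 41 members had a positive value. Against Fcon it was 0.19, beside 0.10 over all genes, with 30 of 41 positive. With quantile normalization or median ratio scaling 25 of 41 were positive against Fcon, and 28 and 30 against FTAI in this order. The share of positive values over all genes is not given here, so these counts cannot be set against it. In 13 of 41 members (31.7%) every Ffat library was above every FTAI library, which held for 7.56% of all genes, and in 15 (36.6%) every Ffat library was above every Fcon library, which held for 29.2% of all genes.

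Ugt2b5, a UGT of the 2B subfamily that is also abundant in mouse liver, had the smallest adjusted p in both comparisons. It was at 18.8, 21.5 and 17.99 FPKM in the 3 Ffat libraries, against 4.51, 5.17 and 2.99 FPKM in FTAI and 6.80, 4.53 and 6.36 FPKM in Fcon. Each Ffat library was above every other library of the series, whose highest value was 8.17 FPKM in an MTAI library. The mean was 4.60-fold that of FTAI, with a log2 difference of 1.99 ± 0.27 (SE) and an adjusted p of 0.000777 by limma. Against Fcon the mean was 3.30-fold, with a log2 difference of 1.58 ± 0.27 (SE) and an adjusted p of 0.00352. Ugt2b5 shares 41.7% of its 50-base stretches with other genes. Summed with Ugt2b37 and Ugt2b38 it was higher in Ffat by 1.95 on the log2 scale against FTAI (adjusted p 0.00108) and by 1.52 against Fcon (adjusted p 0.00499). The call for Ugt2b5 held in both comparisons whichever of the 6 compared libraries was left out.

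Ugt2b35, of the same subfamily and cluster, was at 16.9, 16.1 and 14.9 FPKM in Ffat, against 10.1, 10.8 and 8.73 FPKM in FTAI and 9.78, 8.89 and 8.33 FPKM in Fcon. The Ffat values did not overlap those of either female group, and the log2 differences were 0.64 ± 0.17 (SE, adjusted p 0.0466) against FTAI and 0.76 ± 0.17 (SE, adjusted p 0.0163) against Fcon. Ugt2b36 was at 3.22, 4.52 and 3.48 FPKM in Ffat, against 2.27, 2.08 and 2.92 FPKM in FTAI and 2.42, 1.79 and 1.85 FPKM in Fcon. It was called against Fcon only (0.65 ± 0.15, SE, adjusted p 0.0246, and 0.126 against FTAI). Of the 6 Ugt2 members, 2 were called higher against FTAI and 3 against Fcon. The most abundant of them, Ugt2b34, was not called, at 294, 312 and 306 FPKM in Ffat, against 302, 277 and 251 FPKM in FTAI and 325, 259 and 310 FPKM in Fcon.

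The 4 alpha-class GSTs, which conjugate lipid peroxidation products among other substrates, were all called higher in Ffat than in Fcon. Gsta1 was at 170, 172 and 158 FPKM in Ffat, against 107, 99.5 and 49.4 FPKM in FTAI and 70.0, 73.5 and 97.1 FPKM in Fcon. No Ffat library overlapped those of the other female groups. Its mean was 1.95-fold that of FTAI (log2 difference 1.04 ± 0.26, SE, adjusted p 0.0455) and 2.08-fold that of Fcon (1.06 ± 0.26, SE, adjusted p 0.0319).

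Gsta2 was at 8.95, 10.8 and 8.63 FPKM in Ffat, against 6.32, 5.70 and 3.10 FPKM in FTAI and 4.498, 5.17 and 6.24 FPKM in Fcon, again without overlap. Its log2 differences were 0.83 ± 0.18 (SE, adjusted p 0.0217) against FTAI and 0.74 ± 0.18 (SE, adjusted p 0.0333) against Fcon. Gsta1 shares 89.7% of its 50-base stretches with other genes, Gsta2, Gm3776 and Gm10639 among them, so their FPKM cannot be fully told apart. Summed as 1 gene Gsta1 and Gsta2 were also higher in Ffat, by 1.03 on the log2 scale against FTAI (adjusted p 0.0423) and by 1.05 against Fcon (adjusted p 0.0312). That sum is mostly Gsta1 (means over the 18 libraries of 111 and 6.5 FPKM) and leaves out Gm3776 and Gm10639.

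Gsta4, the form best known for conjugating 4-hydroxynonenal, was at 33.7, 31.8 and 25.5 FPKM in Ffat, against 25.6, 17.3 and 13.2 FPKM in FTAI and 16.3, 14.6 and 18.6 FPKM in Fcon. The lowest Ffat value lay just under the highest FTAI value, and the gene was called against Fcon (log2 difference 0.84 ± 0.21, SE, adjusted p 0.0317) and not against FTAI (0.71 ± 0.21, SE, adjusted p 0.085). Gsta3, which in mice detoxifies the epoxide of aflatoxin B, was at 6.90, 8.76 and 4.12 FPKM in Ffat, against 2.91, 4.46 and 4.62 FPKM in FTAI and 3.79, 2.44 and 2.56 FPKM in Fcon. Ffat overlapped FTAI and lay above Fcon, with a log2 difference from Fcon of 0.92 ± 0.22 (SE, adjusted p 0.0268). Neither Gsta3 nor Gsta4 shared a 50-base stretch with another gene. Added together, the 4 Gsta genes gave 220, 224 and 196 FPKM in Ffat, against 142, 127 and 70.3 FPKM in FTAI and 94.6, 95.7 and 125 FPKM in Fcon. The Ffat sums were above those of all other 15 libraries, whose highest was 177 FPKM in an MTAI library.

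Gstk1, a GST of mitochondria and peroxisomes, was at 31.7, 32.8 and 31.1 FPKM in Ffat, against 23.7, 21.5 and 19.3 FPKM in FTAI and 25.0, 23.1 and 23.0 FPKM in Fcon. It was called against FTAI (log2 difference 0.55 ± 0.13, SE, adjusted p 0.0262), and against Fcon the difference was 0.41 ± 0.13 (SE, adjusted p 0.0768), although no values overlapped. Sult6b2, a cytosolic sulfotransferase of family 6, was at 36.3, 25.1 and 18.2 FPKM in Ffat, against 8.49, 10.47 and 1.15 FPKM in FTAI and 6.29, 5.63 and 8.02 FPKM in Fcon. Its log2 differences were 2.105 ± 0.48 (SE, adjusted p 0.0254) against FTAI and 1.81 ± 0.48 (SE, adjusted p 0.0428) against Fcon. All 3 Ffat libraries lay above the 6 other female libraries.

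**Figure D2:**
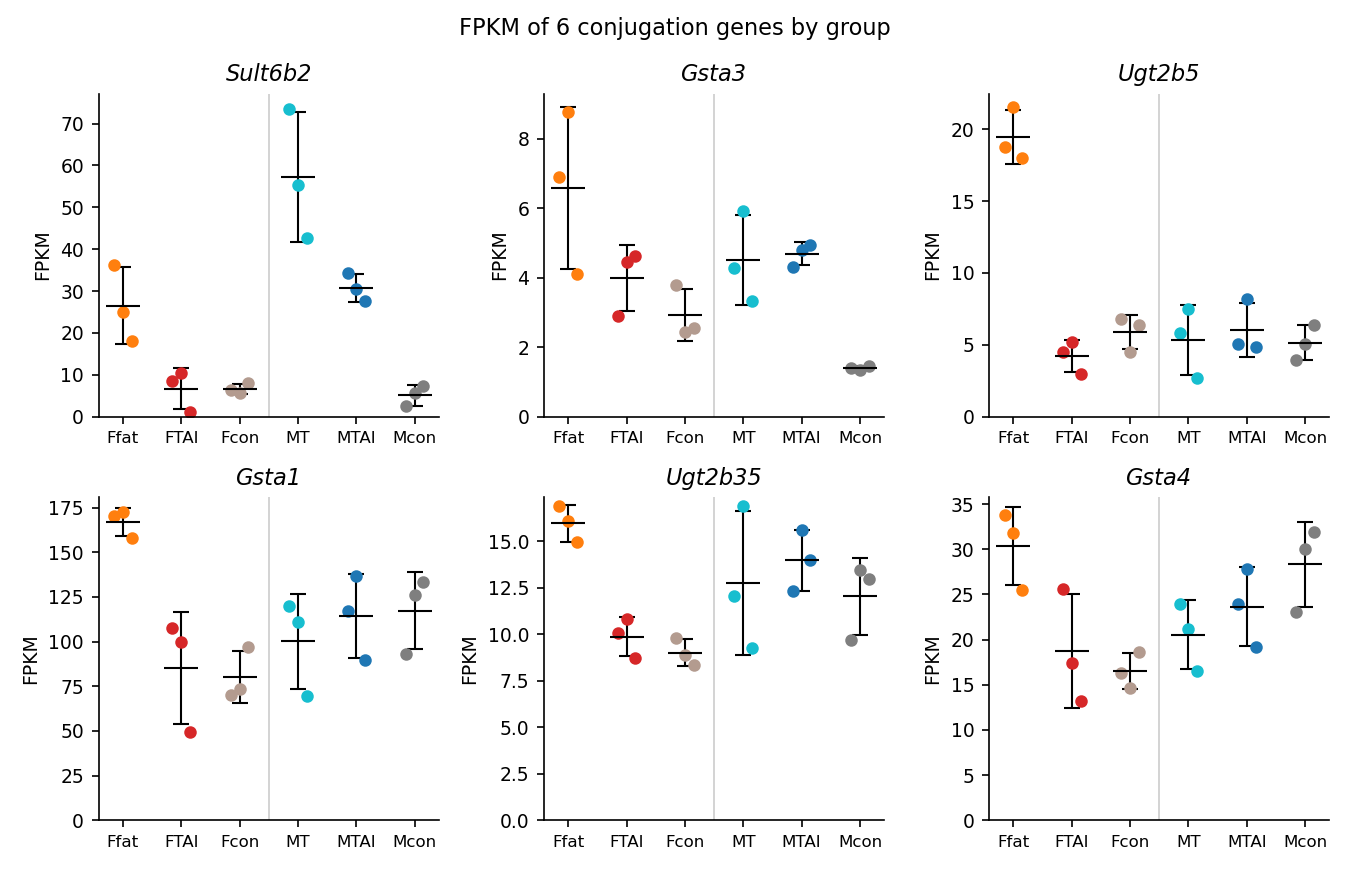
FPKM of Sult6b2, Gsta3, Ugt2b5, Gsta1, Ugt2b35 and Gsta4 in each library (points), with the group mean (long bar) and SD (short bars, n = 3 libraries), for Ffat, FTAI and Fcon females and, right of the grey line, MT, MTAI and Mcon males. Ugt2b5 is high in Ffat alone (17.99 to 21.5 FPKM), whereas Sult6b2 is high in Ffat, MT and MTAI.

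Of the 7 mu-class GSTs (Gstm), 0 were called in limma's test in either comparison with Ffat. With p under 0.05 before adjustment, 2 of them, Gstm1 and Gstm2, had a negative difference in both, where 15% of all genes had such a p in either direction against FTAI and 25.9% against Fcon. Gstm1 had a log2 difference of -0.96 ± 0.34 (SE, adjusted p 0.165) against FTAI and of -0.73 against Fcon, neither past the threshold. It was at 18.5, 21.1 and 18.3 FPKM in Ffat, against 36.3, 57.5 and 27.3 FPKM in FTAI and 32.6, 31.7 and 33.8 FPKM in Fcon. All 3 Ffat libraries were thus below every FTAI and Fcon library. Gstm1 was called lower against Fcon where the 2 compared groups were fitted alone (adjusted p 0.0033). That fit called 1925 of all genes, against 540 with all groups.

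**Figure D3:**
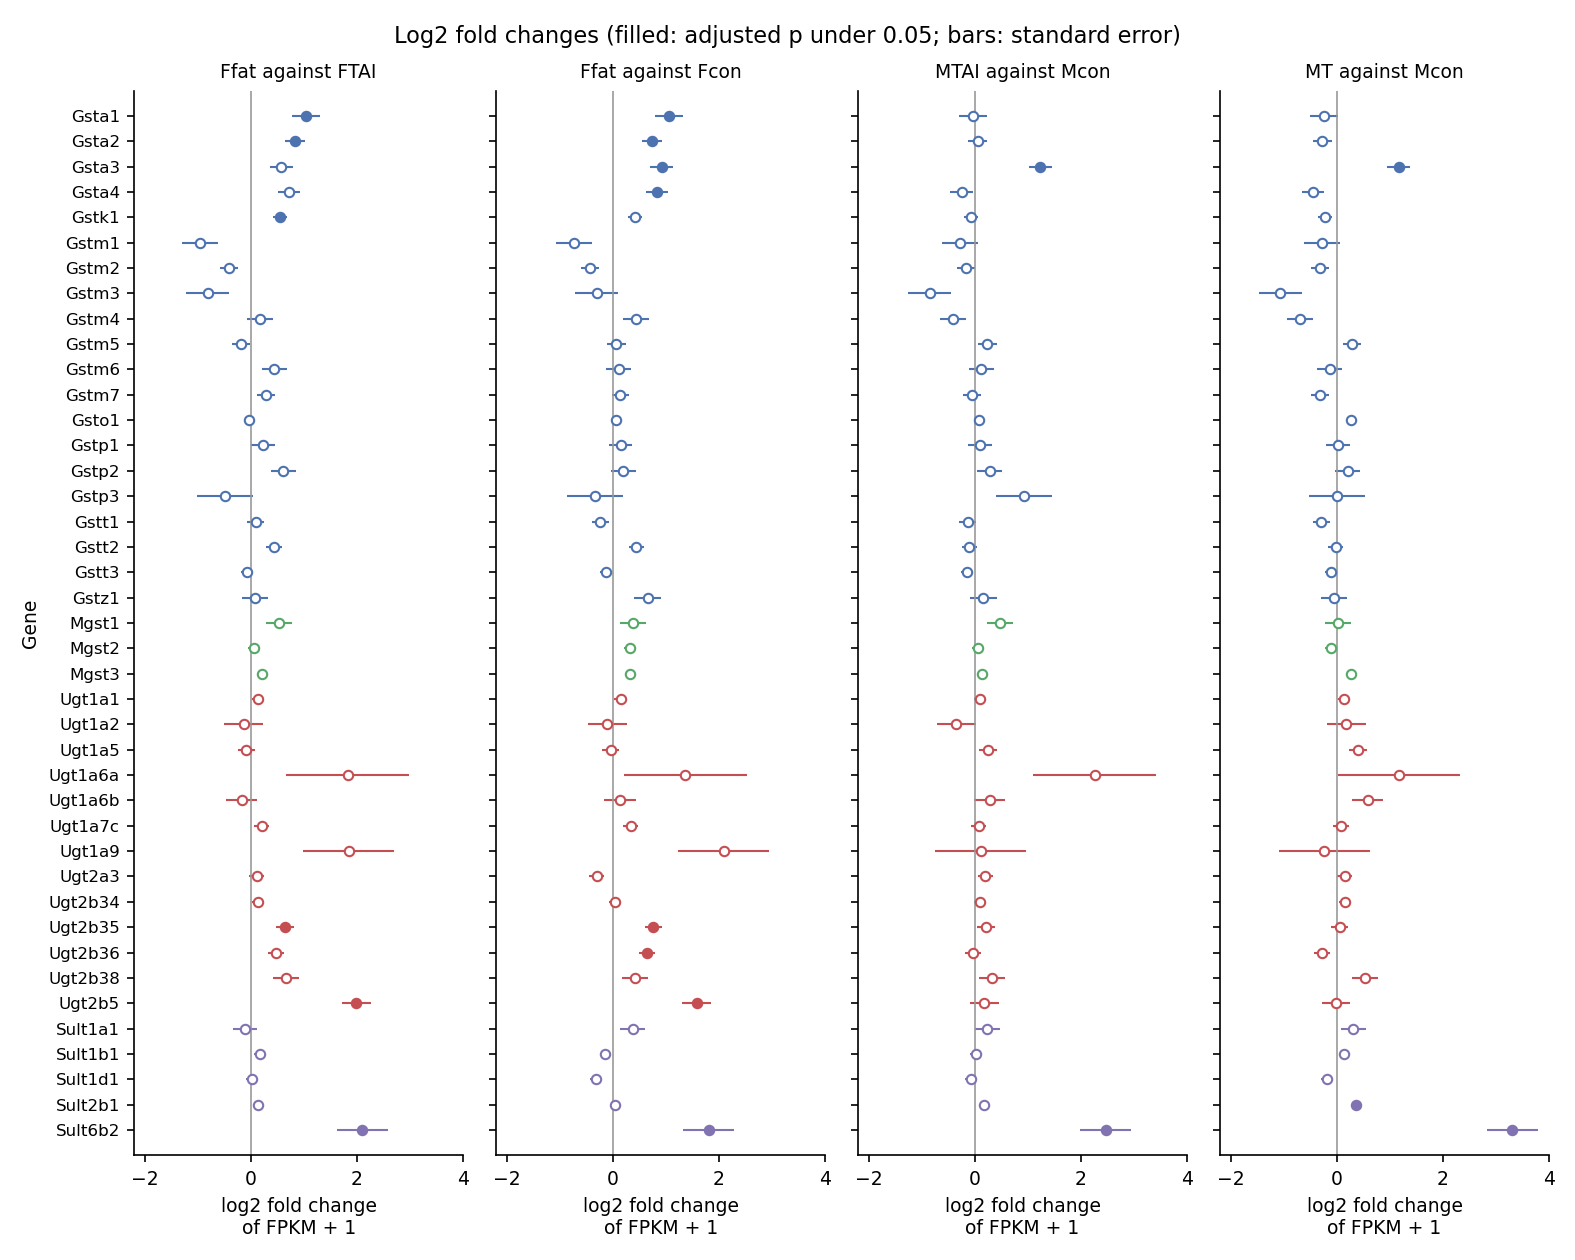
Log2 fold change of FPKM + 1 with its standard error for the 41 genes in Ffat against FTAI, Ffat against Fcon, MTAI against Mcon and MT against Mcon, coloured by family as in the plot of levels. Filled points passed an adjusted p of 0.05: 6, 8, 2 and 3 genes in the 4 panels, all to the right of 0.

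Each call in Ffat other than that of Ugt2b5 was lost without some single library, and most were lost in several fits. Against FTAI, with 1 library left out at a time, the call of Ugt2b35 was lost in 6 of 6 cases. Those of Gsta1 and Gstk1 were lost in 5, and those of Gsta2 and Sult6b2 in 2. Against Fcon, the call of Sult6b2 was lost in 6 of 6 cases, and those of Gsta1, Gsta2 and Gsta4 in 5. Those of Gsta3 and Ugt2b36 were lost in 4, and that of Ugt2b35 in 3. Against FTAI, 3 members were called without FTAI replicate 2, 3 without FTAI replicate 3 (Ugt2b5, Gsta2 and Sult6b2), 1 without Ffat replicate 1 and 1 without Ffat replicate 2 (Ugt2b5 each time). Of all genes, 240, 561, 145 and 166 were called in these fits, against 372 with all libraries. Against Fcon, 2, 1 and 4 members were called without Ffat replicates 1, 2 and 3, and 4, 2 and 3 without Fcon replicates 1, 2 and 3. The counts of all genes were 194, 183, 319, 233, 422 and 256 in this order, against 540 with all libraries. Without FTAI replicate 3, the library that stood apart, the log2 difference of Gsta1 against FTAI was 0.69 (adjusted p 0.0878) and that of Gstk1 was 0.48 (adjusted p 0.0594). Gsta4, not called with all libraries, was called against FTAI without FTAI replicate 1 (0.95, adjusted p 0.0139). With quantile normalization 3 members were higher and 1, Sult1d1, was lower in Ffat than in Fcon, where 869 of all genes were called.

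Cell type markers moved with the same comparison. Of 12 enterocyte markers, 4 were higher in Ffat than in FTAI (Fabp1, Fabp2, Apoa4 and Alpi) and 1 was lower (Anpep), with sums of 33677 to 36218 FPKM in Ffat, 21631 to 26381 FPKM in FTAI and 29545 to 31380 FPKM in Fcon. Against Fcon, 2 enterocyte markers were higher and 2 lower. Paneth markers summed to 694 to 1804 FPKM in Ffat, 186 to 4179 FPKM in FTAI and 93.8 to 202 FPKM in Fcon, with 3 of 7 called higher against Fcon. All 3 adipocyte markers tested were lower in Ffat than in FTAI, with sums of 3.87 to 4.85 FPKM in Ffat, 32.6 to 96.1 FPKM in FTAI and 9.54 to 70.1 FPKM in Fcon. Enteroendocrine markers summed to 87.5 to 101 FPKM in Ffat, 53.8 to 70.6 FPKM in FTAI and 41.7 to 46.1 FPKM in Fcon, with 4 of 5 called higher against Fcon. Of the 5 markers of the distal small intestine, which summed to 138 to 149 FPKM in Ffat, 164 to 229 FPKM in FTAI and 145 to 162 FPKM in Fcon, 2 were tested and 1 (Slc51a, -0.47) was lower in Ffat than in FTAI. Proliferation markers summed to 71.97 to 81.8 FPKM in Ffat, 26.6 to 116 FPKM in FTAI and 25.2 to 47.2 FPKM in Fcon, with 1 of 7 called higher against Fcon. The 5 smooth muscle markers, of which limma called 0 and 4 were lower before adjustment (p under 0.05) in each comparison, summed to 158 to 180.5 FPKM in Ffat, 169 to 336 FPKM in FTAI and 217 to 283 FPKM in Fcon. Of all genes, 15% had such a p in either direction against FTAI and 25.9% against Fcon. The part of these cell type markers in the results for the conjugation genes was not tested.

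Several of the genes are also abundant in liver. The 5 hepatocyte markers summed to 1.26 to 3.08 FPKM in Ffat, 0.557 to 0.922 FPKM in FTAI and 0.527 to 0.705 FPKM in Fcon, and none passed the filter on low values. Albumin (Alb) was at 0.0202, 1.66 and 1.02 FPKM in the 3 Ffat libraries, was listed at 0 in all 3 FTAI libraries and was at 0.184, 0 and 0 FPKM in Fcon. Their part in the results was not tested.

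The genes that supply the conjugating groups were looked at next. Of 17 cofactor genes, 15 were tested, and 5 were higher and 0 lower in Ffat than in FTAI. Ugdh, which makes UDP-glucuronic acid, averaged 181 ± 8.396 FPKM in Ffat and 112 ± 16.3 FPKM in FTAI (SD, n = 3 each, log2 difference 0.70, adjusted p 0.0031 by limma). It was also called against the 126 ± 11.1 FPKM of Fcon (0.52, adjusted p 0.0184). Ugp2, which makes its precursor UDP-glucose, was higher by 0.41 on the log2 scale (adjusted p 0.0152). The glutathione synthesis genes Gclc (0.85, adjusted p 0.0257) and Gclm (0.41, adjusted p 0.0457), the subunits of the rate-limiting ligase, were higher against FTAI, as was Cth, which provides cysteine (0.60, adjusted p 0.0307). Against Fcon, 2 cofactor genes were higher and 0 lower, Ugdh and the glutathione synthetase gene Gss (0.55, adjusted p 0.001). With 1 library left out at a time, the calls of Ugdh against FTAI and of Gss stayed each time, while Gclc, Gclm and Cth lost theirs in 5 of 6 cases, Ugdh against Fcon in 4 and Ugp2 in 2. Gclm was also not called under 6 of the 11 alternatives that kept all libraries.

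Of 14 NRF2 target genes outside the families, 11 were tested. Against FTAI, 2 were higher in Ffat (Gclc and Gclm, which the cofactor list also holds). Against Fcon, Pgd of the pentose phosphate pathway (0.44, adjusted p 0.0048) and Nqo1, a quinone reductase (0.75, adjusted p 0.0043), were higher and Osgin1 was lower (-0.43, adjusted p 0.024). Of 13 other phase II genes, 8 were tested. The soluble epoxide hydrolase gene Ephx2 was higher against FTAI (0.77, adjusted p 0.04), and Nqo1, which is on both lists, and the arsenic methyltransferase gene As3mt (0.35, adjusted p 0.0366) were higher against Fcon. Among 15 regulators, Keap1, the inhibitor of NRF2, was lower in Ffat than in FTAI (9.71 ± 0.378 FPKM in Ffat and 12.6 ± 0.612 FPKM in FTAI, SD, n = 3 each, log2 difference -0.34, adjusted p 0.0257). Ppara, a fatty acid-sensing nuclear receptor, was higher in Ffat than in Fcon (0.60, adjusted p 0.046). Among the 5 tested genes of conjugate export and cleavage, Gusb, the lysosomal glucuronidase, was higher against Fcon (0.75, adjusted p 0.00074). With 1 library left out at a time, Gusb, Nqo1 and Pgd kept their calls against Fcon each time, and the call was lost in 4 of 6 cases for Ephx2, Keap1 and Osgin1 and in 6 of 6 for As3mt and Ppara.

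In males, TAI was followed by higher levels of 2 members. Gsta3 and Sult6b2 were higher in MTAI than in Mcon mice and 0 were lower, where 2.1% of all genes tested were called. Gsta3 was at 4.32, 4.82 and 4.94 FPKM in MTAI, against 1.41, 1.35 and 1.47 FPKM in Mcon. The Mcon values were the 3 lowest of the series, and the MTAI mean was 3.32-fold that of Mcon (log2 difference 1.24 ± 0.22, SE, adjusted p 0.00689). Sult6b2 was at 34.2, 30.5 and 27.5 FPKM in MTAI, against 2.46, 5.54 and 7.30 FPKM in Mcon. The groups were far apart, with a 6.03-fold mean (log2 difference 2.47 ± 0.48, SE, adjusted p 0.0121). The median log2 difference was 0.10 over the 41 members, beside 0.05 over all genes. Without Mcon replicate 1 only 1 member was called (Gsta3), and Sult6b2 had a log2 difference of 2.102 (adjusted p 0.07). Of all genes, 133 were called then, against 247 with all libraries.

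With simvastatin after TAI, 3 members were higher in MT than in Mcon mice and 0 lower, where 5.37% of all genes were called. Sult6b2 reached its highest values of the series, 73.6, 55.3 and 42.7 FPKM in MT, against the Mcon values above (log2 difference 3.31 ± 0.48, SE, adjusted p 0.000731). Gsta3 was at 4.27, 5.91 and 3.34 FPKM in MT, all above Mcon (1.17 ± 0.22, SE, adjusted p 0.00471). Sult2b1 was at 91.6, 87.4 and 102 FPKM in MT, against 70.5, 70.4 and 75.7 FPKM in Mcon (0.37 ± 0.09, SE, adjusted p 0.0235). The Sult6b2 and Gsta3 calls held whichever of the 6 libraries was left out, whereas that of Sult2b1 was lost without MT replicate 1, MT replicate 3, Mcon replicate 1 or Mcon replicate 2 (adjusted p 0.0647 to 0.121). Sult2b1 is a sum over transcripts, of which ENSMUST00000075571 took 21.6% to 83.5% of the gene's FPKM in single libraries and ENSMUST00000210754 took 16.5% to 77.2%, while the sum stayed between 70.4 and 102 FPKM.

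Between MT and MTAI 0 members passed limma's threshold, where 0.697% of all genes did. Before adjustment 1 member was higher and 0 were lower with p under 0.05, where 14.9% of all genes had such a p. That gene, Gsto1, was at 306, 314 and 288 FPKM in MT, against 260, 271 and 265 FPKM in MTAI (log2 difference 0.19, adjusted p 0.314). Sult6b2 was above the MTAI range in every MT library, with a log2 difference of 0.84 ± 0.48 (SE, adjusted p 0.399).

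Other genes moved in the male comparisons. Of 6 goblet cell markers, 3 were lower in MTAI than in Mcon (Clca1, Muc2 and Zg16), with sums of 2954 to 3151 FPKM in MTAI and 3952 to 5363 FPKM in Mcon. Enterocyte markers summed to 25368 to 26756 FPKM in MT, 22590 to 25033 FPKM in MTAI and 22493 to 24860 FPKM in Mcon, with 1 of 12 (Slc5a1) called higher in MT than in Mcon. Paneth markers summed to 173 to 249 FPKM in MT, 426 to 538 FPKM in MTAI and 166 to 356 FPKM in Mcon, and 6 of 7 did not overlap between MTAI and Mcon, though limma called 0 and 0 had p under 0.05 before adjustment. The share of all genes without overlap is not given here for MTAI against Mcon, so these 6 cannot be set against it. Immune markers summed to 665 to 938 FPKM in MT, 328 to 480 FPKM in MTAI and 142 to 538 FPKM in Mcon, with 1 of 6 (Jchain, 1.45) called higher in MT than in Mcon. Distal small intestine markers summed to 154 to 178 FPKM in MT, 166 to 199 FPKM in MTAI and 191 to 207 FPKM in Mcon, with 1 of 2 tested (Slc51b, -0.54) called lower in MT than in Mcon. Their part in the results was not tested. Among the regulators, Ppara was higher than in Mcon both in MTAI (0.70, adjusted p 0.0347) and in MT (0.62, adjusted p 0.0362), and Nr1i3, the constitutive androstane receptor, was higher in MT (0.65, adjusted p 0.043). The exporter gene Abcg2 (-0.52, adjusted p 0.0044) and As3mt (-0.47, adjusted p 0.0056) were lower in MT than in Mcon, and Gusb was higher (0.41, adjusted p 0.0288). With 1 of the 6 compared libraries left out at a time, Abcg2 and As3mt stayed past the threshold each time, Ppara lost its call in 4 of 6 cases in MTAI and in 6 of 6 in MT, Nr1i3 in 6 of 6 and Gusb in 5 of 6. Of the 15 cofactor genes tested, 0 were called in limma's test in any of the 3 male comparisons. With p under 0.05 before adjustment, 3 were higher and 0 lower in MTAI than in Mcon, 5 higher and 1 lower in MT than in Mcon, and 0 in either direction between MT and MTAI. Between MT and MTAI 14.9% of all genes had such a p. For the comparisons with Mcon that share is not given here, so those counts cannot be set against all genes.

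In females, 0 members passed limma's threshold after TAI alone, where 0.756% of all genes were called. Before adjustment, 3 members had a higher and 3 a lower level in FTAI than in Fcon with p under 0.05, where 17.2% of all genes had such a p. Those with a negative difference were Sult1b1 (-0.32, adjusted p 0.162), Sult1d1 (-0.34, adjusted p 0.176) and Ugt2a3 (-0.41, adjusted p 0.193), and those with a positive one Mgst2 (0.27, adjusted p 0.254), Gstz1 (0.58, adjusted p 0.265) and Sult1a1 (0.49, adjusted p 0.286). Sult1b1 was at 312, 310 and 269 FPKM in FTAI, against 392, 327 and 392 FPKM in Fcon. Without FTAI replicate 1, Mgst2 was called higher (0.43, adjusted p 0.0183), and without FTAI replicate 3 the count stayed at 0. Of all genes, 1050 were called without FTAI replicate 1, 17 without FTAI replicate 3 and 89 with all libraries. Sult6b2 overlapped between FTAI and Fcon. Outside the families, Gusb (0.52, adjusted p 0.044) and Pgd (0.39, adjusted p 0.044) were higher in FTAI than in Fcon. Each of these calls was lost in 5 of 6 cases with 1 library left out, and under 5 (Gusb) and 7 (Pgd) of the 11 alternatives that kept all libraries.

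The TAI change in females minus that in males was tested directly. It was called for 0 members by limma, where 1.33% of all genes were called, and 1 member was higher and 5 were lower with p under 0.05 before adjustment, where 10.7% of all genes had such a p. The smallest adjusted p among the members was that of Sult6b2, whose TAI change was 2.76 lower in females than in males on the log2 scale (-2.76 ± 0.68, SE, adjusted p 0.0611). It passed the threshold when FTAI replicate 1, 2 or 3 was left out (adjusted p 0.0402, 0.0307 and 0.034). Gsta3 had a difference of -0.89 ± 0.31 (SE, adjusted p 0.233).

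Without treatment, 4 members were called different between the sexes. Fcon mice had 2 higher and 2 lower than Mcon mice, where 5.13% of all genes were called. Gstm3 was at 69.5, 63.0 and 84.5 FPKM in Fcon, against 194, 196 and 292 FPKM in Mcon, a log2 difference of -1.62 ± 0.40 (SE, adjusted p 0.0302). Gstm4, of the same cluster, was at 3.38, 3.02 and 4.28 FPKM in Fcon, against 6.16, 8.11 and 9.06 FPKM in Mcon (-0.94 ± 0.24, SE, adjusted p 0.0362). Neither gene overlapped between the sexes. Ugt2a3 was at 91.2, 72.8 and 92.9 FPKM in Fcon, against 57.5, 61.7 and 53.7 FPKM in Mcon (0.56 ± 0.14, SE, adjusted p 0.0362). Sult1d1 was at 193, 167 and 194 FPKM in Fcon, against 135, 147 and 131 FPKM in Mcon (0.42 ± 0.11, SE, adjusted p 0.0438).

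These 4 calls were close to the threshold, and quantile normalization gave 3 higher and 1 lower and median ratio scaling 2 higher and 0 lower. Group weights gave 0 higher and 3 lower, and both the replicate block and the compared groups alone gave 1 higher and 3 lower. The count was 2 without Mcon replicate 1 (Gstm4 and Gsta4), 0 without Mcon replicate 2 or 3, and 0 without Fcon replicate 1 or 3. In these fits 394, 292, 388, 239 and 263 of all genes were called, against 604 with all libraries. Without Fcon replicate 2, 3 members were higher (Ugt2a3, Sult1d1 and Sult1b1) and 0 lower, with 603 of all genes called. The call of Gstm3 was lost in 6 of 6 cases with 1 library left out, and those of Gstm4, Ugt2a3 and Sult1d1 in 5. Gsta4 itself was at 16.3, 14.6 and 18.6 FPKM in Fcon, against 23.0, 29.996 and 32.0 FPKM in Mcon (adjusted p 0.0534), and Gsta3 had a log2 difference of 0.69 (adjusted p 0.0832). Of 12 enterocyte markers, 3 were higher in Fcon (Apoa1, Dpp4 and Fabp2), with sums of 29545 to 31380 FPKM in Fcon and 22493 to 24860 FPKM in Mcon. Of the distal small intestine and tuft cell markers, 1 each was lower in Fcon, and the part of these markers was not tested. Of the 5 genes of export and cleavage, 3 were lower in Fcon (Abcc3, -0.92, adjusted p 0.0126, Abcg2, -0.37, adjusted p 0.0397, and Gusb, -0.46, adjusted p 0.0184). Gclm was higher (0.55, adjusted p 0.0073) and Gss (-0.41, adjusted p 0.0074) and As3mt (-0.61, adjusted p 0.0014) were lower. The regulators Cdx2 (-0.44, adjusted p 0.0184) and Nr1h4 (-0.49, adjusted p 0.0484) were also lower in Fcon. With 1 library left out at a time, Gclm, Gss and As3mt kept their calls each time, and the call was lost in 1 of 6 cases for Abcc3, 3 for Gusb, 4 for Cdx2, 5 for Nr1h4 and 6 for Abcg2.

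Gstm3 varied within groups as well. In irradiated males it was at 158, 105 and 70.3 FPKM in MT and at 166, 185 and 60.1 FPKM in MTAI, against 194, 196 and 292 FPKM in Mcon. All 6 irradiated libraries were below the lowest Mcon library, yet neither difference was called (MTAI against Mcon -0.85, adjusted p 0.418). In Ffat it was at 60.1, 63.8 and 50.5 FPKM, against 97.9, 178 and 62.4 FPKM in FTAI. Gstm3 shares 28.8% of its 50-base stretches with other genes and Gstm1 23.1%, whereas Gstm4 shares 0%.

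**Figure D4:**
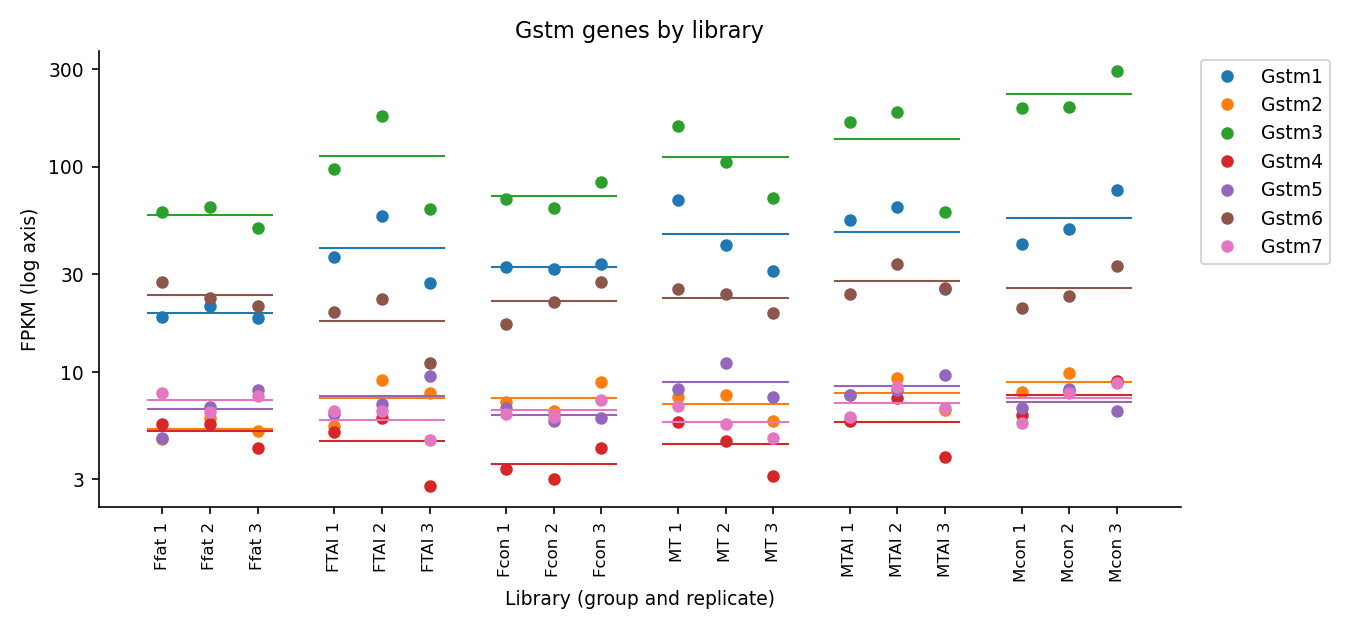
FPKM (log axis) of the 7 Gstm genes in each of the 18 libraries, with a line at each group mean. Gstm3 is the most abundant in every library and is highest in Mcon (194 to 292 FPKM), and Gstm4 is lower in Fcon (3.02 to 4.28 FPKM) than in Mcon (6.16 to 9.06 FPKM).

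The Ugt1a genes are a special case. They are made from 1 locus by joining different first exons to common ones. Of the 5 exons of each transcript, 3 had the same start and end in all 7 members, 440 bases together. More sequence than these exons is shared. In Ugt1a1 they are 440 of 2224 bases, while 58.2% of its 50-base stretches were in other genes. That share was lowest in Ugt1a7c (40.9%). Within the locus the FPKM were split unevenly from library to library. Whether this came from how reads were assigned or from the mice was not tested. Ugt1a6a was at 12.6, 41.01 and 23.6 FPKM in Ffat, against 9.20, 9.35 and 2.02 FPKM in FTAI and 2.04, 4.62 and 47.1 FPKM in Fcon. Among males it was at 33.9, 38.5 and 1.55 FPKM in MT and 40.5, 47.3 and 15.8 FPKM in MTAI, against 1.70, 2.62 and 30.3 FPKM in Mcon. Fcon, MT and Mcon thus each held both very low and very high libraries. Ugt1a6a shares 97.7% of its 50-base stretches with other genes and was called in no comparison.

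Ugt1a9 was at 37.5, 47.1 and 40.2 FPKM in Ffat, against 27.4, 35.3 and 0.604 FPKM in FTAI and 29.2, 3.96 and 5.65 FPKM in Fcon. Every Ffat library was above the other female libraries, but the log2 difference from Fcon (2.09) was not called with all groups sharing 1 spread. Ugt1a1 and Ugt1a7c were steadier, at 137 to 211 FPKM and 53.6 to 89.6 FPKM over the 18 libraries. The sum over the 7 genes was 343, 336 and 328 FPKM in Ffat, against 288, 319 and 210 FPKM in FTAI and 267, 228 and 304 FPKM in Fcon. The Ffat sums were the highest of the female libraries, and their log2 differences were 0.32 against FTAI (adjusted p 0.283) and 0.34 against Fcon (adjusted p 0.139), neither past the threshold.

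**Figure D5:**
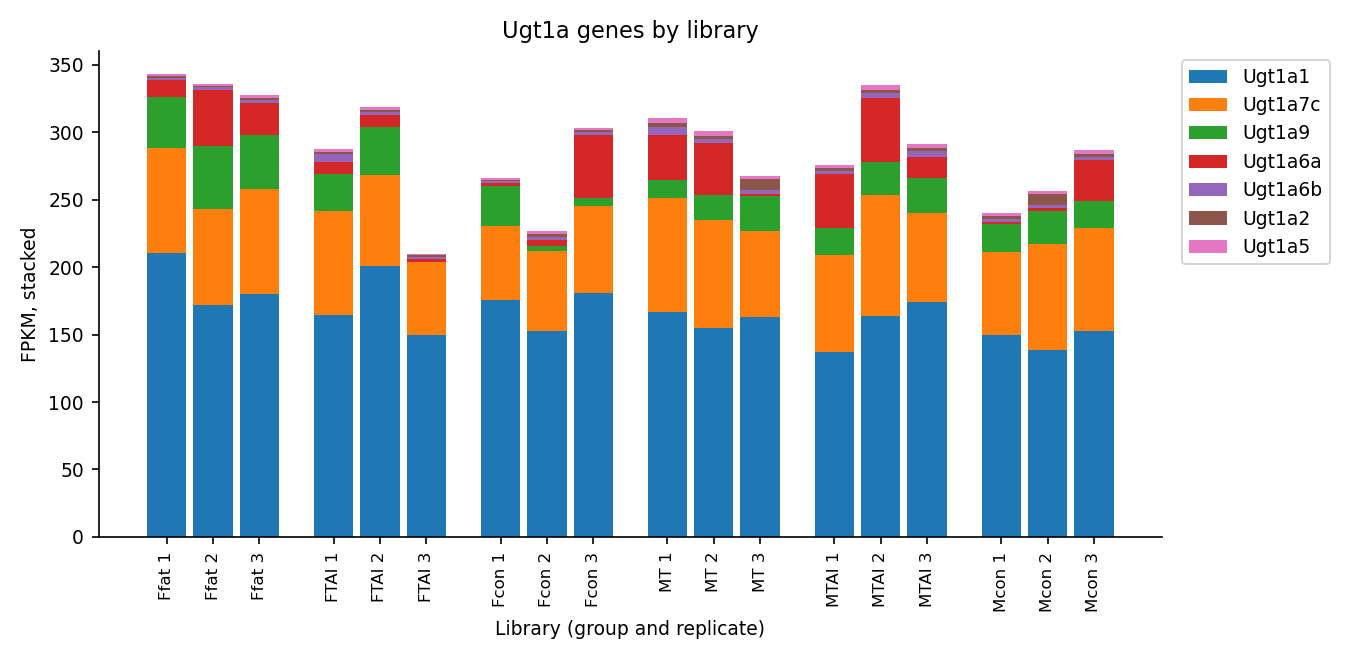
Stacked FPKM of the 7 Ugt1a genes in each of the 18 libraries. The total is 210 to 343 FPKM, with Ugt1a1 the largest part throughout (48.8% to 71.4% of the total), while the parts given to Ugt1a6a (0.578% to 15.5%) and Ugt1a9 (0.288% to 14.0%) change from library to library within groups.

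The summed level of all 41 members averaged 2472 ± 64.1 FPKM in Ffat, 2176 ± 206 FPKM in FTAI and 2253 ± 186 FPKM in Fcon, and 2411 ± 279 FPKM in MT, 2402 ± 109 FPKM in MTAI and 2344 ± 165 FPKM in Mcon (SD, n = 3 each). The genes that rose in Ffat were mostly not the most abundant ones, with Gsta1 the only one of the 15 most abundant members among those called.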

How the data were processed

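RNA-seq was made from Trizol-extracted total RNA with a NEBNext kit. The deposited table holds FPKM per transcript for 18 libraries, made by the authors. Tools listed in the submitters' processing notes are Bowtie2 (2.2.8), Cuffdiff (2.1.1), StringTie (1.3.1) and HISAT2, whose roles are, like the genome build, not given in the sources used here. A transcript estimate can move reads between genes that share sequence.

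FPKM of the 55869 transcripts were summed by gene symbol and tested on log2(FPKM + 1) with limma (3.58.1, R 4.3.3, moderated test with intensity trend). All 18 libraries entered with 1 mean per group, genes needed at least 1 FPKM in at least 3 libraries (10161 symbols were left out), and the Benjamini-Hochberg adjustment ran over 11767 genes in each of 8 comparisons. Fold changes on this scale understate changes of low genes. The procedure was run on simulated data for MTAI against Mcon alone. These had the same spread per gene in every group, unlike the real data. They therefore do not show how the procedure handles unequal spread.

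The 41 members and all lists were chosen with earlier results of these data known. Named are all members past the threshold (up to 12 per direction), the 15 most abundant, the 2 on either side of the level condition, and up to 4 genes per list and comparison past the threshold. Gsto1 in MT against MTAI, Gstm1, Gsta4, Ugt2b34, the Ugt1a genes and the FTAI values were added after seeing them. Alternatives were the pseudocount, the filter, 2 scalings, the trend, group weights, the replicate number as a block, the compared groups alone, each library left out and, chosen after seeing the data, near-identical genes summed. Positions came from GENCODE M21 (GRCm38), used for names and places only, and promoters from RefSeq (GRCm38.p6). Shares of 50-base stretches were computed on GENCODE transcripts. Figures were drawn with matplotlib (3.10.9).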

Additional observations from a re-analysis of the deposited data

How the results depend on the processing

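The number of members called for Ffat against FTAI (6) was 2 with median ratio scaling, 2 with groups weighted by their own spread (Ugt2b5 and Sult6b2 both times) and 1 with the compared groups alone (Ugt2b5). In the same order 245, 141 and 47 of all genes were called, against 372 in the fit used above. For Ffat against Fcon (8) it was 4 with no filter on low values, 4 with quantile normalization (3 higher and 1 lower), 4 with median ratio scaling, 16 with group weights (14 higher and 2 lower) and 17 with the compared groups alone (15 higher and 2 lower). The count over all genes moved as well, from 540 to 453, 869, 663, 2377 and 1925 in the same order. For Fcon against Mcon (2 higher and 2 lower) it was 0 with no filter and 2 with median ratio scaling (2 higher and 0 lower), and the split was 3 higher and 1 lower with quantile normalization, 0 higher and 3 lower with group weights, and 1 higher and 3 lower with the replicate block and with the compared groups alone. Of all genes 511, 471, 569, 659, 631 and 317 were called in this order, against 604 in the fit used above. The cause was not tested. Under the other alternatives that kept all libraries, the counts of the 8 comparisons stayed within 1.5 times.

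Leaving out 1 library gave 1 to 2 members called for MTAI against Mcon, 0 for MT against MTAI, 2 to 3 for MT against Mcon, 0 to 1 for FTAI against Fcon, 1 to 6 for Ffat against FTAI, 1 to 4 for Ffat against Fcon, 0 to 3 for Fcon against Mcon and 0 to 1 for the TAI change in females minus that in males. All genes called numbered 105 to 203, 11 to 71, 330 to 520, 6 to 1050, 145 to 561, 183 to 422, 239 to 603 and 87 to 184 in the same order. Single results were followed for every call of a member or of a listed gene outside the cell type markers. With Sult6b2 in the sex comparison of TAI these made 55 results. Of their values, 0 of 599 under the other alternatives and 0 of 336 with a library left out changed sign. The threshold was lost in 121 and 173 and gained in 3 (Sult6b2, above). Other members not called with all libraries, such as Gsta4 and Mgst2 above, also gained calls in some settings and are not among the 55. Sult6b2 in the sex comparison of TAI had adjusted p between 0.0307 and 0.171 over all alternatives.

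Scaling moved the median of all genes by over 0.1 on the log2 scale in FTAI against Fcon (0.12 as deposited and -0.01 after either scaling), Ffat against Fcon (0.10 and -0.02 with quantile normalization, where the median of the members was 0.08) and MT against MTAI (-0.09 and 0.01). Same-numbered libraries were not treated as pairs, since in 0 of 7 comparisons every correlation of their deviations was over 0.1 (-0.459 to 0.322). The same number gave the highest correlation in 11 of 21 cases, and in Fcon against Mcon each time (0.0616 to 0.289). With the replicate number as a block 9 members were called for Ffat against Fcon, and 2, 0, 3, 0, 6, 4 and 0 in MTAI against Mcon, MT against MTAI, MT against Mcon, FTAI against Fcon, Ffat against FTAI, Fcon against Mcon and the sex comparison of TAI. The counts of all genes were 684, and 241, 70, 573, 46, 350, 631 and 147 in the same order. With 3 libraries a group and no read counts, a difference that misses the threshold does not show that values were alike.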
